A study of Mus musculus with 4 samples.

Results

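The genes described here are the mouse odorant receptors with the symbols Olfr1000 to Olfr1299, taken as whole numbers without the suffix for pseudogenes. The deposited tables hold 217 such symbols among 49671 gene symbols. In the GENCODE M21 annotation of the genome build GRCm38 (mm10), all 217 lie on chromosome 2, and 215 are annotated as protein coding. They form 2 stretches: 196 members lie in chr2:85607037-90292841, from Olfr1000 to Olfr1272, and 21 lie in chr2:111230360-111665814, from Olfr1275 to Olfr1299. The 67 pseudogene symbols and 1 duplicate entry in the same range of numbers are not members.

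Transcripts were counted cell by cell in the nasal sensory epithelium of outbred CD-1 mice. There is 1 library for each age: the day of birth (P0) and days 3 (P3), 7 (P7) and 21 (P21) after it. The title names as its subject neurons needed for the map that odorant receptors form in the olfactory bulb. Cells were freed with papain and loaded as sorted samples on a droplet system that reads the 3′ end of each transcript. The sources used here do not give the gate of the sort or the sex and number of the mice, and name no genotype or treatment.

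The epithelium holds olfactory sensory neurons, the basal cells that renew them, and supporting cells. A sensory neuron typically transcribes a single receptor gene, from one allele, and neurons that share a receptor send their axons to the same glomeruli of the olfactory bulb. Mouse receptors fall into class I, which resembles fish receptors and lies in one cluster on chromosome 7, and the larger class II, spread over many chromosomes. Gap43, a growth cone protein, marks immature neurons, and Omp, olfactory marker protein, marks mature ones. Nqo1, a quinone reductase, marks neurons of the dorsal zone of the epithelium, where class I receptors and some class II receptors are used. Ncam2, a cell adhesion molecule, marks the remaining zones.

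A cell was counted as using a receptor when an Olfr gene reached 3 unique molecular identifiers (UMIs, each one transcript molecule), and as led by the Olfr gene with most UMIs, with ties led by none. Because each molecule is counted at its 3′ end, UMIs were not divided by gene length. Omp cells had 3 or more Omp UMIs, and Gap43 cells had 3 or more Gap43 UMIs and fewer than 3 of Omp. After filtering, the libraries held 1413 to 3220 cells with 6844712 to 17770838 UMIs, among them 476 to 958 Omp cells and 115 to 655 Gap43 cells. The P0 and P3 libraries shared 68 cell barcodes, against 1 to 9 in each other pair of libraries. In 13 of these 68, both cells used a receptor, and in all 13 the leading receptor was the same. Among the cells with these 68 barcodes, a member led 1 at P0 and 2 at P3. With 1 library per age, age and library cannot be told apart, and no test across ages was possible. All intervals are exact binomial (Clopper-Pearson) intervals at 95% and, like the limits given for counts of 0, cover counting error only. The limit for a count of 0 is 3 cells of the total, a simpler rule than the exact intervals drawn in the plots.

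Most of the cluster was in use. Of the 217 members, 197 had at least 1 UMI, 177 reached 3 UMIs in a cell, and 160 (73.7%) led at least 1 Omp cell. Other class II receptors led an Omp cell in 532 of 774 cases (68.7%), and class I receptors in 78 of 120 (65%). Members led 451 Omp cells and 132 Gap43 cells in all, which is 2.08 Omp cells per member against 1.96 for other class II receptors and 1.97 for class I. Use was spread thinly: 55 members led exactly 1 Omp cell, 27 led 5 or more and 2 led 10 or more.

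Olfr1176 (chr2:88336721-88342048, plus strand) led the most, with 17 Omp cells. By age, from P0 to P21, these were 3, 4, 4 and 6 cells, so it was seen in each library at a similar count. Olfr1030 (chr2:85979276-85988294, plus strand) led 11, with 3, 3, 1 and 4 cells in the same order. Olfr1271 (chr2:90260546-90271032, minus strand) led 9, with 0, 1, 3 and 5 cells. Olfr1048 led 8, Olfr1037, Olfr1044, Olfr1173 and Olfr1198 led 7 each, and Olfr1043 and Olfr1102 led 6 each. In Gap43 cells the order was different: Olfr1006 led 5, Olfr1032 and Olfr1270 led 4 each, and Olfr1018 and Olfr1030, among others, led 3 each. Olfr1032 and Olfr1270 led no Omp cell at all.

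The 57 members that led no Omp cell differed from the rest in their annotation. Of these, 12 (21.1%) had 3 or fewer annotated bases of 3′ untranslated region, against 7 of the 160 (4.38%) that led one. The median annotated 3′ region was 709 bases in the former and 1736 bases in the latter. Among the 20 members without a single UMI, 6 (30%) had 3 or fewer such bases. The libraries read 3′ ends, and the annotation the authors counted on is unknown here, so unused and uncounted members cannot be told apart.

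**Figure D1:**
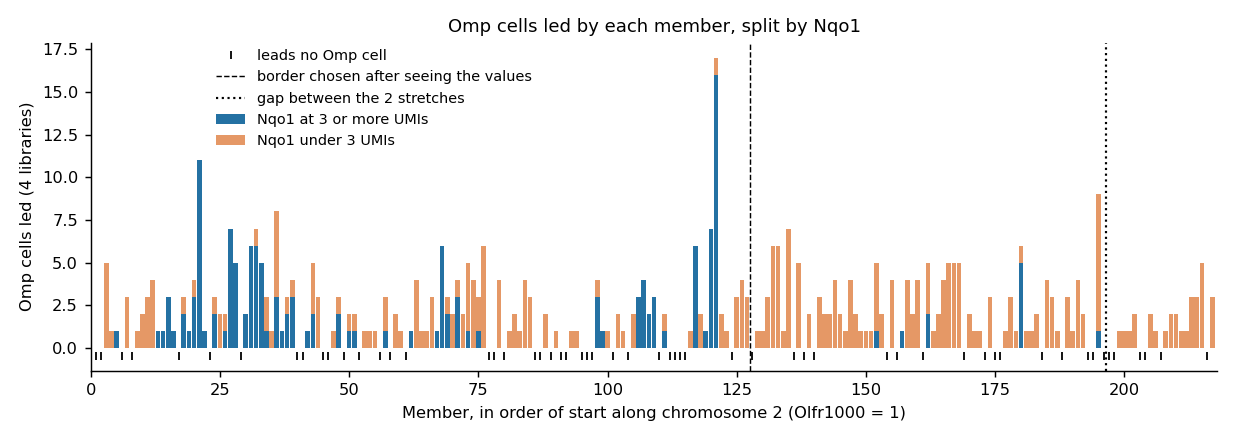
Each bar is 1 of the 217 members in order along chromosome 2 (horizontal axis), and its height is the number of Omp cells it led over the 4 libraries, split by Nqo1 (3 or more UMIs in blue, fewer in orange). Ticks below 0 mark the 57 members that led none, the tallest bar is Olfr1176 with 17 cells, and blue is mostly to the left of the dashed line.

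The share of receptor-using Omp cells led by a member was 17.8% at P0 (95 of 533 cells, 14.7 to 21.3%), 18.3% at P3 (99 of 540, 15.2 to 21.9%), 23.5% at P7 (93 of 396, 19.4 to 28.0%) and 19.2% at P21 (164 of 853, 16.6 to 22.03%). The intervals of all 4 libraries overlapped, with P7 highest. In Gap43 cells the share was 14.6% at P0 (55 of 378, 11.2 to 18.5%), 12.3% at P3 (35 of 285, 8.71 to 16.7%), 13.4% at P7 (33 of 246, 9.42 to 18.3%) and 11.7% at P21 (9 of 77, 5.49 to 21.0%). Members thus led a larger share of Omp cells than of Gap43 cells in 4 of 4 libraries, by 6.73 ± 2.84 percentage points (SD, n = 4). The exact two-sided sign-flip permutation test over the 4 libraries gave the smallest p that 4 pairs allow, with 2 of 16 sign assignments as extreme, and a p of 0.2 after Benjamini-Hochberg adjustment over the 8 within-library comparisons made here. With cells thinned to 2000 UMIs the difference was 7.08 ± 3.97 percentage points (SD, n = 4), again positive in 4 of 4 libraries. Here and in every thinned comparison below, cells with fewer than 2000 UMIs were left out. The Omp and Gap43 gates were set on the counts before thinning.

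**Figure D2:**
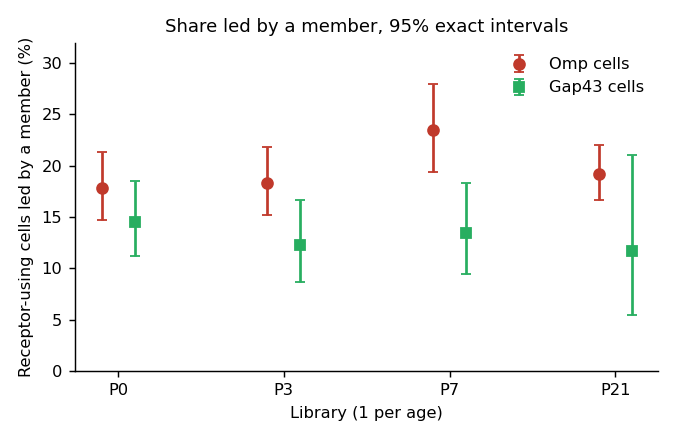
Share of receptor-using cells led by a member (vertical axis, percent) in each library (horizontal axis), for Omp cells (circles) and Gap43 cells (squares), with exact 95% binomial intervals. The circle lies above the square in all 4 libraries, and their intervals overlap at P0, P3 and P21.

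Omp cells that also carried 3 or more Gap43 UMIs, which pass both gates, were counted among the Omp cells above. Of these, a member led 19.0% at P0 (48 of 252), 19.3% at P3 (57 of 295), 26.3% at P7 (30 of 114) and 14.7% at P21 (19 of 129). Omp cells with fewer than 3 Gap43 UMIs stood at 16.7%, 17.1%, 22.3% and 20.03% in the same order. The cells with both were the higher at P0, P3 and P7 and the lower at P21, with overlapping intervals.

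The leading member was well above the threshold of 3 UMIs in most Omp cells. The P0 library had a median of 15 UMIs, against 26 in P3, 35 in P7 and 30.5 in P21, and single cells ranged from 3 to 338 UMIs. In Gap43 cells the median was 9, 21, 12 and 20 UMIs. The level was higher in Omp cells in 4 of 4 libraries, by 0.80 ± 0.53 (SD, n = 4) on the log2 scale of the medians, and by 1.055 ± 0.41 (SD, n = 4) after scaling each cell to the same total (CPM). The exact sign-flip permutation test again gave the smallest possible p for each (0.2 adjusted). Cells thinned to 2000 UMIs gave a log2 difference of 1.15 ± 0.33 (SD, n = 4).

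Members and other class II receptors stood at similar levels. In Omp cells the medians of the other class II receptors were 17, 27, 27 and 28 UMIs, so that members were lower at P0 and P3 and higher at P7 and P21. The mean log2 difference was 0.07 ± 0.24 (SD, n = 4), smaller than its spread, with p = 0.75 by the exact sign-flip permutation test (0.75 adjusted).

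**Figure D3:**
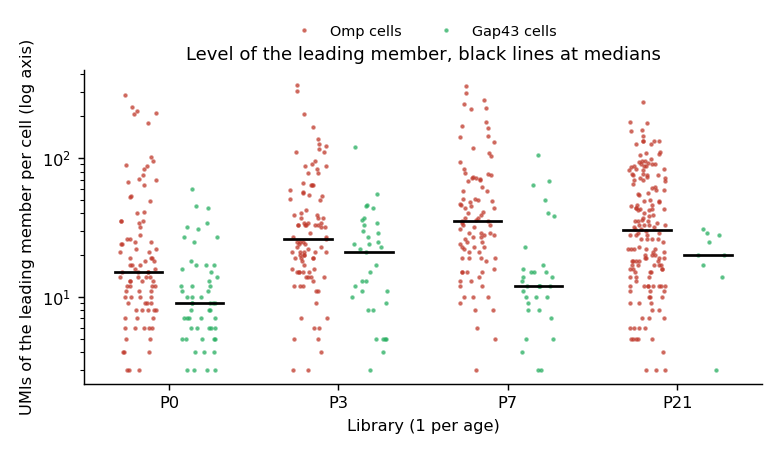
UMIs of the leading member in each member-led cell (vertical log axis) by library (horizontal axis), with Omp cells in red, Gap43 cells in green and black lines at the medians. Each Omp median lies above the Gap43 median of the same library, 15 against 9 UMIs at P0 and 35 against 12 at P7, and the points of both kinds overlap widely.

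Levels ranged widely between members. Olfr1176 had a median of 95 UMIs over its 17 Omp cells, from 19 to 206. Olfr1030 had a median of 39 over 11 cells, from 16 to 93, and the ranges of these 2 members overlapped. The members that follow led fewer than 10 cells and were chosen after their values were seen. Olfr1253 (chr2:89749467-89757090) had a median of 229 UMIs over 6 Omp cells. These were 89, 209 and 232 UMIs at P0, 338 at P3, and 226 and 246 at P7, so that 5 of the 6 cells were above 200 UMIs. Olfr1140 had a median of 271.5 UMIs over 4 cells, and Olfr1297 one of 117 over 5. At the other end, Olfr1029 had a median of 8.5 UMIs over 4 cells and Olfr1043 one of 12 over 6 cells. These medians pool libraries: 5 of the 6 Olfr1043 cells came from P0, where its median of 12 was near the 15 of all members, and the Olfr1297 cells came from P3 and P7.

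Member-led Omp cells were Nqo1-positive, with 3 or more Nqo1 UMIs, in 51.6% of cases at P0 (49 of 95, 41.1 to 62.0%), 40.4% at P3 (40 of 99, 30.7 to 50.7%), 35.5% at P7 (33 of 93, 25.8 to 46.1%) and 16.5% at P21 (27 of 164, 11.1 to 23.0%). The P21 interval lay below those of the other 3 libraries. Cells led by other class II receptors were positive in 175 of 350 at P0, and in 43.9%, 40.3% and 30.5% in the later libraries, and cells led by class I receptors at 89.8%, 77.5%, 66.7% and 69.1%. Members were below class I in 4 of 4 libraries, by 39.8 ± 9.10 percentage points (SD, n = 4, the smallest p of the exact sign-flip permutation test, 0.2 adjusted). Against other class II receptors they were higher at P0 and lower at P3, P7 and P21, and the mean difference of -5.19 ± 6.52 percentage points (SD, n = 4) was within its spread (exact permutation p = 0.25, 0.333 adjusted). At P21 alone that difference was -14.1 points, against 1.58, -3.51 and -4.77 at P0, P3 and P7.

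Depth was checked beside these shares. Thinned to 2000 UMIs per cell, the members' Nqo1-positive share was 44.4%, 33.0%, 28.6% and 17.0%, and so still lowest at P21. It was then below that of other class II receptors at P0 too, by -2.44 percentage points. In cells outside the neuronal lineage, 3 or more Nqo1 UMIs were found in 2 of 488 cells at P0, 0 of 1020 at P3, 1 of 413 at P7 and, in the P21 library, 0 of 166. The median depth there was 2352 to 3774 UMIs per cell, against 4640 to 6338 in member-led Omp cells. No such cell held a member at 3 or more UMIs, which allows a share of up to 0.615%, 0.294%, 0.726% and 1.81% in the same order. In Gap43 cells led by a member, Nqo1-positive cells were few: 4 of 55, 3 of 35, 3 of 33 and, in the P21 library, 0 of 9, where 0 allows up to 33.3%.

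Nqo1 status differed between members. Of the 73 members that led 3 or more Omp cells, 12 had only Nqo1-positive cells, 40 had none, and 21 were mixed. Of the 27 that led 5 or more, 8 had only positive cells, 10 had none, and 9 were mixed. A member with few cells can hold only positive or only negative cells through counting alone. The same count was not made for other receptors, and no test was made. Olfr1176 was Nqo1-positive in 16 of 17 cells, and its negative cell, at P21, had 1309 UMIs in total, the fewest of the 17. Olfr1030 was positive in 11 of 11, Olfr1037 and Olfr1173 in 7 of 7, and Olfr1043 and Olfr1102 in 6 of 6. Olfr1198 was positive in 0 of 7, Olfr1271 in 1 of 9, Olfr1048 in 3 of 8, and Olfr1044 in 6 of 7.

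To see whether the status of a member held in libraries not used to assign it, each member was typed in P3 and P7 and read in P0 and P21. By the majority of its cells in P3 and P7, with no minimum number of cells, 26 members were of the Nqo1 type, 69 of the other type and 9 split. Cells led by the 26 were then Nqo1-positive in 23 of 28 at P0 (82.1%, 63.1 to 93.9%) and in 18 of 23 at P21 (78.3%, 56.3 to 92.5%). Cells led by the 69 were positive in 6 of 27 at P0 (22.2%, 8.62 to 42.3%) and in 2 of 66 at P21 (3.03%, 0.369 to 10.5%). These counts leave out cells at P0 and P21 whose barcodes were shared with P3 or P7. For the Nqo1 type the share of positive cells was thus close at both ages, with overlapping intervals. The share of receptor-using Omp cells that these 26 members led was 5.32% at P0 (3.57 to 7.60%) and 2.73% at P21 (1.74 to 4.07%). That of the 69 others was 5.13% (3.41 to 7.38%) and 7.83% (6.11 to 9.85%), and the intervals overlapped for both types. In Gap43 cells the shares stood the other way, but on 2 to 20 cells each, and no direction is read from them. There the 26 led 1.63% at P0 (6 of 368) and 5.19% at P21 (4 of 77), and the 69 led 5.43% (20 of 368) and 2.60% (2 of 77).

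The Nqo1-positive share differed along the chromosome. In windows of 0.5 Mb, a description made after the values were seen, the Nqo1-positive share of Omp cells was 54.3% for Olfr1000 to Olfr1031 (25 of 46 cells) and 68.1% for Olfr1032 to Olfr1066 (49 of 72). It was 36.7% (11 of 30) for Olfr1076 to Olfr1102, 15.9% (7 of 44) for Olfr1104 to Olfr1126, 57.1% (16 of 28) for Olfr1128 to Olfr1158 and 63.3% (31 of 49) for Olfr1160 to Olfr1184. The next window, Olfr1186 to Olfr1214, had 0 positive cells of 50, which allows up to 6% (7.11% by the exact interval). The 3 windows after it, to Olfr1272, stood at 7.14%, 17.9% and 5.26%, and the 21 members of the distant stretch at 0 of 29 cells, which allows up to 10.3%. Neighbouring members within 100 kb were of the same type in 71 of 89 pairs (79.8%), against 59.3% of pairs more than 1000 kb apart, for members with 2 or more Omp cells. These pairs share genes and cells, and no test was made. Pairs far apart can span the drop after Olfr1184, so the 2 shares do not show blocks on either side of it. Types also alternated within a window. Olfr1167 was positive in 100% of 6 Omp cells and Olfr1168 in 0% of 2. Olfr1176 was positive in 94.1% of 17 and Olfr1178 in 0% of 2.

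A border at 88.5 Mb, between Olfr1184 and Olfr1186, was therefore used to describe the members in 2 sets. It was placed after the values were seen, and the difference in Nqo1 across it is a description. The 127 members before it led 269 Omp cells, of which 51.7% were Nqo1-positive. The 90 members after it led 182, of which 5.49% were. Both shares pool libraries whose own shares differed, so no interval is given for them. Of the 10 positive cells after the border, 5 were led by Olfr1253, the member with 229 UMIs at the median, and 2 by Olfr1231. By library, cells before the border were positive in 68.7%, 54.5%, 52.6% and 34.2% of cases at P0, P3, P7 and P21. Cells after it were positive in 3 of 28, 4 of 33, 3 of 36 and 0 of 85, where 0 allows up to 3.53% by that rule (4.25% by the exact interval).

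**Figure D4:**
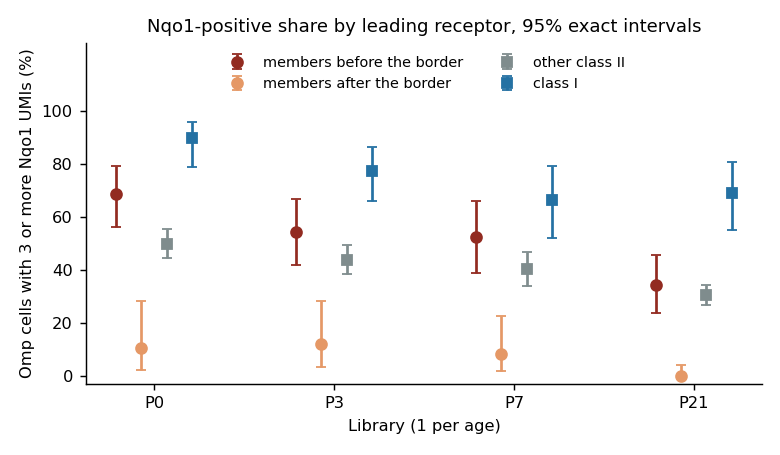
Share of Omp cells with 3 or more Nqo1 UMIs (vertical axis, percent) by library (horizontal axis) and by leading receptor, with exact 95% binomial intervals. Members before the 88.5 Mb border stand at 34.2 to 68.7%, members after it at 0 to 12.1%, and class I receptors at 66.7 to 89.8%.

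The use of the 2 sets is described for each age. Members before the border led 12.6% of receptor-using Omp cells at P0 (9.88 to 15.7%), 12.2% at P3, 14.4% at P7 and 9.26% at P21 (7.40 to 11.4%). Members after it led 5.25% at P0 (3.52 to 7.50%), 6.11% at P3, 9.09% at P7 and 9.96% at P21 (8.04 to 12.2%). The P0 and P21 intervals overlapped before the border and did not overlap after it. Thinned to 2000 UMIs, members after the border stood at 6.12% at P0 (4.035 to 8.84%) and 10.3% at P21 (8.16 to 12.8%), and these intervals overlapped. Without the barcodes shared by P0 and P3 they stood at 5.32% at P0. In Gap43 cells the same members led 5.29%, 2.46%, 4.88% and 3.90% of using cells, and members before the border 9.26%, 9.82%, 8.54% and 7.79%. Each age is 1 library, so whether use changed with age, or changed differently in the 2 sets, was not tested.

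**Figure D5:**
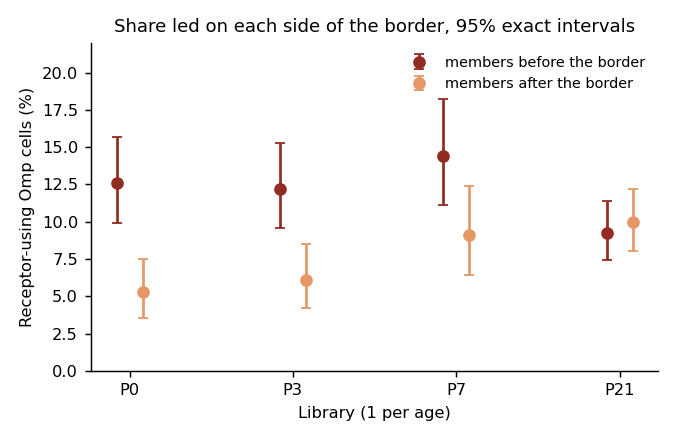
Share of receptor-using Omp cells (vertical axis, percent) led by members before and after the 88.5 Mb border in each library (horizontal axis), with exact 95% binomial intervals. The set before the border is the higher at P0, P3 and P7, and at P21 the sets stand at 9.26% and 9.96%.

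Other zone genes are described for the same sets of cells. Because the border was placed after the Nqo1 values of these cells were seen, differences in other zone genes are no separate support for it. Acsm4, an enzyme gene of the dorsal zone, stood at 742, 550, 761 and 442 CPM in Omp cells led by members before the border at P0, P3, P7 and P21, and at 50.5, 95.2, 34.7 and 20.2 CPM after it. Nfix, a transcription factor gene, stood at 151, 106, 210 and 285 CPM before the border and at 312, 376, 564 and 486 CPM after it. Ncam2 stood at 16.8, 39.8, 36.5 and 40.7 CPM before and 92.6, 77.1, 104 and 73.9 CPM after. For each of these 3 genes the values of the 2 sets did not overlap. Ncam2 rested on 5 to 33 UMIs per set and library. Nrp2 (26.9 to 42.5 CPM before, 42.1 to 81.6 after) and Nfib (10.1 to 65.1 before, 54.4 to 92.6 after) overlapped. Nfia overlapped too, at 6.71, 7.97, 9.14 and 10.9 CPM before the border and 0, 9.07, 39.6 and 56.0 CPM after it. At P0 it was thus the lower after the border, and it rested on 0 to 25 UMIs per set and library.

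Single members were too rare to follow across ages. At the minimum of 10 leading neurons (Omp and Gap43 cells together) over P0 and P21, 1 member could be compared: Olfr1176 led 4 of 911 receptor-using neurons at P0 and 6 of 930 at P21, 1.41-fold, with 0.5 cell added to each count. That was not past the 2-fold limit, which 16.7% of the 6 receptors so measured passed upwards and 16.7% downwards. At a minimum of 5, 11 members could be compared, of which 3 were more than 2-fold higher at P21 and 1 lower, against 28.9% higher and 18.1% lower among the 83 receptors measured. Olfr1195 led 0 neurons at P0 and 5 at P21, Olfr1240 1 and 5, and Olfr1271 2 and 5. Olfr1043 led 5 at P0 and 1 at P21.

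A few cells held another receptor beside the leading member. Another Olfr gene reached 3 UMIs in 42 of the 583 member-led neurons (7.20%, 5.24 to 9.61%). In Omp cells the share by age was 8.42%, 9.09%, 5.38% and 4.27%, against 5.14%, 5.93%, 5.08% and 3.88% for cells led by other class II receptors. The difference of 1.78 ± 1.66 percentage points (SD, n = 4) was positive in 4 of 4 libraries (the smallest p of the exact sign-flip permutation test, 0.2 adjusted), and in 3 of 4 with cells thinned to 2000 UMIs (p = 0.375 by the same exact test). In 21 of the 42 cells the other gene lay within 100 kb of the leading member. The 7 pairs seen in 2 or more cells all lay within 100 kb of each other, and no exons of a pair overlapped in the annotation.

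These 7 pairs were of 2 kinds. In 4, the coding sequences were nearly identical: Olfr1034 and Olfr1036 at 98.0%, Olfr1202 and Olfr1204 at 96.7%, Olfr1191-ps1 and Olfr1193 at 95.6%, and Olfr1032 and Olfr1033 at 95.5%. Counts of genes so alike can be split between copies, so the counts of these members are uncertain. The last 90 coding bases of 2 of these pairs, read from the GENCODE M21 transcripts, are shown to let the near identity of the copies be seen. They lie 1523 to 5042 bases of annotated 3′ untranslated region away from the transcript ends that the libraries read, and how alike those regions are was not measured. Capitals mark bases that differ within a pair. All 4 are on the plus strand of GRCm38, at chr2:86047324-86047413 (Olfr1034), chr2:86075582-86075671 (Olfr1036), chr2:88818010-88818099 (Olfr1202) and chr2:88852789-88852878 (Olfr1204).
Olfr1034: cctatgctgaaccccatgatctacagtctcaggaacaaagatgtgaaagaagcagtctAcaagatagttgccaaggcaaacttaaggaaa
Olfr1036: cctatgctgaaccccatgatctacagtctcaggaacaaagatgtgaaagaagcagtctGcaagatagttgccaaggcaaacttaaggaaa
Olfr1202: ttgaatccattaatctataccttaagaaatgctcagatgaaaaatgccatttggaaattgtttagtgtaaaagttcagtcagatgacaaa
Olfr1204: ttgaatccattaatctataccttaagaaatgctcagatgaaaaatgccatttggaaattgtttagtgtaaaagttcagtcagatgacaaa
The ends of Olfr1034 and Olfr1036 differ in 1 base of 90, and those of Olfr1202 and Olfr1204 in 0.

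In a cell at P3, Olfr1036 had 50 UMIs and Olfr1034 had 30, and in a cell at P0 they had 17 and 4. All 3 neurons led by Olfr1202 held Olfr1204 at 3 UMIs, beside 7, 20 and 13 UMIs of Olfr1202, and 0 of the 3 led by Olfr1204 held Olfr1202 at 3 or more.

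The other 3 pairs were neighbours with coding identities of 65.4 to 71.0%. Olfr1263 and Olfr1264 lie on opposite strands with 101 bases between their 3′ ends. They were found together in 3 Omp cells, with 50 UMIs of Olfr1263 and 51 of Olfr1264 at P3, and 23 and 30, then 54 and 4, at P21. In 2 of these 3 cells, then, both genes were at similar counts. Olfr1042 and Olfr1043 lie 51 bases apart on the minus strand and had 9 and 12 UMIs in a cell at P0, and 3 and 6 in another. Olfr1030 and Olfr1031 lie 2009 bases apart and had 53 and 3 UMIs in a cell at P3, and 36 and 4 in another. Most neurons led by these genes lacked the partner at that level. The partner reached 3 UMIs in 2 of 14 neurons led by Olfr1030, 2 of 6 by Olfr1264 and 2 of 7 by Olfr1043. It did so in 0 of 4 led by Olfr1042, 0 of 1 led by Olfr1031 and 1 of 1 led by Olfr1263.

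Identity to another member also touches some members named above. Among the 27 members with 5 or more Omp cells, 3 had another member at 95% coding identity or more: Olfr1196 (97.0% with Olfr1197), Olfr1173 (96.9% with Olfr1168) and Olfr1167 (95.5% with Olfr1170). The closest member to Olfr1176 was Olfr1164 at 72.4%, and to Olfr1030 it was Olfr1029 at 69.8%. Neighbouring members had a median coding identity of 69.8% over 214 pairs, from 56.6 to 98.7%.

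RefSeq windows on GRCm38.p6 of 300 bases, 250 before to 50 after a listed start, matched 181 of the 217 members. Of these 183 windows, 131 have the coding start as their listed start, and others begin close to it (Olfr1053 at 1 base, Olfr1215 at 4). They therefore lie mostly within the annotated genes and were not taken as promoters. The letters TAATTA, the core motif of homeodomain proteins such as Lhx2, which reads the same on both strands, were found in 25.7% of the 183 windows. CCCNNGGG, an Ebf-type motif that also reads the same on both strands, was found in 2.19%. The shares were 30.6% and 2.78% in the 36 windows that begin within 20 bases of a GENCODE start but not exactly at the coding start, so TAATTA was about as frequent in either set. Among all 32851 windows of the table the shares were 5.29% and 13.7%, but how many of those start at a coding start was not counted, and nothing about promoters follows from these values.

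Genes other than receptors were compared between Omp cells led by members and Omp cells led by other class II receptors, with UMIs summed per library and set and the library as a block. Of 8311 genes tested with edgeR's quasi-likelihood test, 7 were higher (0.0842%) and 18 lower (0.217%) in member-led cells at a Benjamini-Hochberg adjusted p of 0.05, and 467 had an unadjusted p under 0.05. Tppp3, a microtubule-binding protein gene, was lower by -0.78 ± 0.10 (SE) on the log2 scale (adjusted p = 4.67e-08), at 88.8, 159, 75.4 and 71.2 CPM in member-led cells against 158, 244, 179 and 108 CPM. Pcdh11x, a protocadherin gene, was lower by -0.78 ± 0.12 (adjusted p = 1.04e-05), Olig1, a transcription factor gene, by -0.59 ± 0.10 (adjusted p = 6.92e-05) and Tenm2, a teneurin of cell adhesion, by -0.52 ± 0.09 (adjusted p = 0.00015). Each of these 4 was lower in 4 of 4 libraries.

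Genes linked to neuronal activity were among those lower. S100a5, a calcium-binding protein gene, stood at 3758, 4234, 6956 and 12616 CPM at P0, P3, P7 and P21 in member-led cells and at 7563, 5677, 9008 and 12810 CPM in the others, a log2 difference of -0.44 ± 0.05 (SE, adjusted p = 1.44e-09). The difference was largest at P0 and small at P21, a variation between libraries that this SE does not measure. It was not shared by all members: cells led by members before the 88.5 Mb border stood at 2769, 2027, 5384 and 11477 CPM, and cells led by members after it at 6239, 8003, 9510 and 13555 CPM, above the other class II receptors in 3 of 4 libraries. Pcp4l1 was lower by -0.31 ± 0.06 (adjusted p = 0.00209) and in 3 of 4 libraries. With Cartpt, 3 of the 4 tested genes of the list of 10 activity genes were lower and 0 higher, with a median of -0.25 against 0.01 over all genes tested. Pcp4l1 was lost without P0, P3 or P7. S100a5 and Pcp4l1 lost their calls when the spread was estimated robustly, an alternative added after the data were seen.

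Mslnl (0.35 ± 0.06, SE, adjusted p = 0.000459) and Cadps2, a secretion protein gene (0.48 ± 0.09, adjusted p = 0.00115), were higher in member-led cells and in 4 of 4 libraries. Rps4l (0.84 ± 0.21), Cep295 (0.93 ± 0.22) and Hsd17b4 (0.61 ± 0.15) were also higher in 4 of 4, and the noncoding RNA Meg3 (1.04 ± 0.21) and Selenom (0.32 ± 0.06) in 3 of 4. The noncoding RNA Malat1 was lower by -0.19 ± 0.04 (adjusted p = 0.000418). Nqo1 was lower by -0.23 ± 0.05 (adjusted p = 0.00808) and in 3 of 4 libraries. Leaving out 1 library ended several of these calls: Mslnl was lost without P3, Cadps2 without P3 or P7, Meg3 and Selenom without P0 or P7, Malat1 without P7, and Nqo1 without P7 or P21. Rps4l was lost without P0, P7 or P21, and Cep295 and Hsd17b4 without any 1 of the 4. Acsm4 stood at 406 CPM on average against 426 (adjusted p = 0.865), Gap43 at 1091 against 977 (0.883), and Omp at 3956 against 3905 (0.991), and none passed the test.

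Some calls rested on few cells. A single cell held 30.4% of all Apoe UMIs of the Omp cells led by other class II receptors, where Apoe, an apolipoprotein gene, was the higher (log2 difference -1.63 ± 0.19, SE, adjusted p = 1.44e-09). For Avp, the vasopressin gene (-2.12 ± 0.29, adjusted p = 1.04e-07), a single cell held 45.4% of those UMIs, and for Cd36, a fatty acid receptor gene (-1.38 ± 0.27, adjusted p = 0.00101), 91 of 1516 cells held a UMI. Avp was lost without P7, and Cd36 without P0 or P7. Meg3, higher in member-led cells, had a UMI in 24 of 451 of them, and a single cell held 22% of its 100 UMIs there. Leukocyte markers summed to 1.89 to 7.20 CPM in member-led sums and 7.03 to 41.7 CPM in the others, and sustentacular markers to 30.2 to 55.3 CPM against 37.2 to 83.3 CPM. Their part in these results was not tested. DESeq2 called 0 genes, the fit without the library block called 0, and without P0, P3 or P7 in turn 16, 14 and 12 genes were called in place of 25.

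In Gap43 cells 4378 genes were tested and 2 were higher (0.0457%) and 2 lower (0.0457%) in cells led by members, with 253 at an unadjusted p under 0.05. Tmsb4x, a thymosin gene, was lower by -0.29 ± 0.06 (SE, edgeR adjusted p = 0.0154) and Pcdh11x by -1.50 ± 0.31 (adjusted p = 0.0251), both in 4 of 4 libraries. Bglap3 (1.70 ± 0.19, adjusted p = 6.98e-07) and Apoe (2.71 ± 0.35, adjusted p = 1.18e-05) were higher, but a single cell held 45.1% of the Bglap3 UMIs and 71.4% of the Apoe UMIs of the member-led cells. Nqo1 stood at 230 CPM on average against 221 (adjusted p = 0.983), and Acsm4 at 110 against 63.4 (adjusted p = 0.239). Without P3, and with DESeq2 or without the block, 0 genes were called. Without P21 2 were called, and without P7 10. Tmsb4x and Pcdh11x each lost their calls without P0, P3 or P21 in turn.

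Against class I receptors the member-led Omp cells differed in many more genes. Of 5577 tested, 72 were higher (1.29%) and 70 lower (1.26%), with 615 at an unadjusted p under 0.05. All 4 tested genes of the list of 5 ventral zone genes were higher, with a median log2 difference of 2.57 against -0.01 over all genes. Nfix stood at 197, 206, 345 and 395 CPM in member-led cells against 20.1, 27.3, 16.2 and 22.6 CPM in class I-led cells, a log2 difference of 3.56 ± 0.21 (SE, edgeR adjusted p = 4.03e-15), and the 2 sets did not overlap. Ncam2 was higher by 3.56 ± 0.43 (adjusted p = 5.18e-07) with 5 UMIs in all class I-led cells, Nfib by 1.58 ± 0.36 (adjusted p = 0.00868) and Nrp2, a receptor of axon guidance cues, by 1.56 ± 0.36 (adjusted p = 0.0105), a call kept in 7 of 13 alternatives and lost without P3 or P7, with DESeq2 and without the block.

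All 3 tested genes of the 4 dorsal zone genes were lower. Nqo1 stood at 1985, 1703, 1118 and 789 CPM against 5345, 2756, 2395 and 2567 CPM (log2 difference -1.26 ± 0.10, SE, adjusted p = 2.65e-11). Acsm4 was lower by -1.38 ± 0.12 (adjusted p = 4.1e-10) and Robo2, an axon guidance receptor gene, by -0.86 ± 0.18 (adjusted p = 0.00342). Acsm4 lost its call under the robust spread, and Nqo1 without the block.

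Beyond the zone genes, Gldc, a glycine cleavage enzyme gene (2.65 ± 0.25, SE, adjusted p = 1.94e-09), Bcl11b, a transcription factor gene (2.48 ± 0.28, adjusted p = 1.7e-07), and Cidea, a lipid droplet protein gene (1.70 ± 0.23, adjusted p = 3e-06), were higher in member-led cells in 4 of 4 libraries. Fam19a4, a secreted protein gene, had 1 UMI in 451 member-led cells and 165 UMIs in 236 class I-led cells. Tppp3 was lower by -2.34 ± 0.12 (adjusted p = 2.98e-16), Socs2, an inhibitor of cytokine signalling, by -1.28 ± 0.13 (adjusted p = 1.88e-08), and Ppa1, a pyrophosphatase gene, by -0.99 ± 0.10 (adjusted p = 2.05e-08). Stom (0.73 ± 0.09), Mslnl (0.88 ± 0.11), Pcolce2 (0.86 ± 0.11) and Atox1 (0.60 ± 0.09) were higher, and Bglap3 (-1.57 ± 0.13), Gng3 (-1.31 ± 0.16), Acss2 (-1.23 ± 0.15) and Cdkn1a (-0.82 ± 0.11) lower. Of the genes in this paragraph, Socs2, Stom, Mslnl, Pcolce2, Atox1, Bglap3, Gng3 and Cdkn1a lost their calls without the block. Tppp3, Acss2 and Mslnl lost theirs in cells without Nqo1, meaning cells with fewer than 3 Nqo1 UMIs.

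Maturation genes also differed. In odour transduction, 4 of 14 tested genes were higher (median 0.27): Stoml3 (0.61 ± 0.08, SE, adjusted p = 1.69e-06), the channel subunit Cnga4 (0.57 ± 0.13), the chloride channel Ano2 (0.57 ± 0.13) and the G protein subunit Gng13 (0.27 ± 0.07). In the list of immature neuron genes, 4 of 11 were lower (median -0.39): Gap43 (-0.54 ± 0.14), Stmn1 (-0.52 ± 0.13), Stmn2 (-0.56 ± 0.10) and Gng8 (-0.67 ± 0.14). The Gap43 call was kept in 8 of 13 alternatives and lost with DESeq2, without the block, with the robust spread and without P7 or P21. The Stoml3 call was kept in 12 of 13 and lost without the block. Cnga4, Ano2, Gng13, Stmn1, Stmn2 and Gng8 were not followed in the alternatives. Omp itself did not pass (0.26 ± 0.08, adjusted p = 0.0668). DESeq2 called 31 genes and the fit without the block 17, and without P7 58 were called, in place of 142. Nfix, Gldc, Bcl11b, Cidea, Fam19a4 and Ppa1 kept their calls in all 13 alternatives, and Ncam2 in the 12 that tested it.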

How the data were processed

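Single-cell libraries of olfactory epithelium were made at 4 ages, 1 per age. The deposited values are UMI counts per gene and cell; Cell Ranger 2.1.1, Seurat and mm10 are named in the submitters' processing notes, without their roles. The sources used here do not give the authors' annotation or any earlier filter. Cells with 500 or more genes and at most 10% mitochondrial and 10% haemoglobin UMIs were kept. Scrublet called too few cells to be of use, and none was removed. No per-sample column was left unmapped.

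Members and gene lists were chosen with earlier results of these data known. Named members were the 10 leading most Omp cells, the 5 leading most Gap43 cells, the extremes in Nqo1 share, median UMIs and P21 over P0 fold among those with 10 or more leading cells, and the most frequent pairs. Named genes were the 10 with the smallest p in each direction past the threshold, and always Omp, Gap43, Nqo1 and Acsm4. Called genes of the lists are named beside their counts, and other names were chosen after their values were seen. Gene differences were tested on 8 sums per comparison with edgeR 4.0.16 (TMM, quasi-likelihood, library as block, Benjamini-Hochberg 0.05). Data were simulated with a fixed spread and the same change in every library. Of genes changed 2-fold, 62 of 98 were called for other class II in Omp cells. In Gap43 cells 47 of 100 were called, and against class I 46 of 100. Unchanged genes called numbered 9, 3 and 11. Changes that vary between libraries were not simulated. Within-library contrasts used exact sign-flip tests. P-values concern these libraries only. Those of the sign-flip tests rest on the signs and sizes of the 4 within-library differences. Where all 4 share a sign, the p is the smallest possible, whatever their spread. The edgeR test weighs the spread of each gene together with that of other genes. Each SE was derived from the log2 difference and its F statistic. Both the edgeR p-values and the SEs can therefore understate how far a single gene varied between libraries. The block pairs the sums of 1 library, which share its preparation and sequencing. Alternatives were DESeq2 1.42.0, other thresholds, thinning and leaving out libraries. Windows at gene starts were taken from RefSeq, GRCm38.p6.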

Additional observations from a re-analysis of the deposited data

Results flagged for a closer look

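Receptor symbols in the same range of numbers but with the pseudogene suffix led 43 Omp cells (10, 15, 4 and 14 in the libraries by age). They came from 11 of 67 such symbols, with Olfr1038-ps leading 9, and the median was 17 UMIs. These cells lie outside the members' counts. A member also led 18 cells that passed neither the Omp nor the Gap43 gate (7 of 1421, 2 of 2079, 5 of 912 and 4 of 340 by age), with up to 62 UMIs.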

How the results depend on the processing

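The share of Omp cells with another receptor, 6.79% as the mean of the libraries, was 12.5% when use was set at 2 UMIs, 4.26% at 5 UMIs and 4.09% in thinned cells. The members' share of Gap43 cells, 13.0%, was 14.5% with gates at 5 UMIs and 14.4% with pseudogene symbols counted as members. Members past 2-fold between P0 and P21 numbered 4 at a minimum of 5 cells, and a minimum of 20 left no member to compare.

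For other class II receptors in Omp cells, 25 genes became 0 with DESeq2, 41 without the filter on low counts, 0 without the replicate block, 10 in cells without Nqo1, and 12 to 24 without 1 library. In Gap43 cells, 4 became 0 with DESeq2, 7 without TMM, 26 without the filter, 0 without the replicate block, 2 with a robust spread (added after the data were seen), 9 in cells without Nqo1, 2 with use at 5 UMIs, 8 without cells holding another receptor, and 0 to 10 without 1 library. Against class I, 142 became 31 with DESeq2, 17 without the replicate block, 89 in cells without Nqo1, and 58 to 125 without 1 library. The cause of these shifts was not tested.

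Signs reversed among genes that passed no test. In Omp cells against other class II receptors, log2 differences without 1 library ran from -0.00854 to 0.0442 for Omp, from -0.203 to 0.00718 for Acsm4, from -0.039 to 0.207 for Gap43 and from -0.023 to 0.149 for Nrp2. Omp stood at -0.022 without the filter and -0.00371 in cells without Nqo1, Acsm4 at 0.179 in cells without Nqo1, and Nrp2 at -0.056 in cells without Nqo1 and -0.083 without cells holding another receptor. In Gap43 cells Nqo1 stood at -0.016 without the filter and ran from -0.343 to 0.625 without 1 library.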
